A study of Mus musculus with 6 samples.

Results

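Wide open domains are stretches of the genome over which ATAC-seq peaks ran much further than usual in every library of mouse palatal shelves. ATAC-seq uses the Tn5 transposase to insert adapters into accessible DNA, and a peak is an interval in which such fragments pile up. In each of the 6 peak lists the peaks wider than 2000 bp were taken, overlapping wide peaks of different libraries were merged, and the merged regions that held a wide peak in all 6 libraries were kept. This gave 1515 domains out of 10839 merged regions with a wide peak in any library, and out of 707876 merged regions of all peaks. The domains were chosen on peak width, so their widths against other regions are given as a description and are not tested. Tests were run only between the 2 tissues, which the rule did not use, although it set a floor on width in every library. The libraries came from C57BL/6 mouse embryos at E14.5. In the 3 epithelium libraries the cells were palatal epithelium, peeled from the shelf by hand after a short trypsin digestion. In the 3 mesenchyme libraries they were the tissue that stayed behind, which is largely but not only mesenchymal. No genotype or treatment separated the groups, the number of embryos or shelves behind a replicate is stated differently in different places, and no label links libraries of the 2 tissues that carry the same number. P-values between tissues therefore measure the spread between these libraries, which may be partly technical.

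Most open chromatin lies in short intervals, where bound transcription factors keep nucleosomes away. Promoters inside CpG islands, which are stretches of unmethylated DNA rich in CpG pairs, tend to be accessible in most cell types. Long open stretches around start sites have been described at genes of cell identity, at genes of development and at genes that respond quickly to signals. Wide intervals also arise in mapping data at sequences that the reference assembly holds in too few copies, such as satellite DNA and tandem RNA genes, because reads of many genomic copies are stacked on the few copies that were assembled. Nuclear copies of mitochondrial DNA can likewise take reads that come from the abundant mitochondrial genome.

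The sequences below show both kinds of domain. The first 5 are the 200 bases before the RefSeq start site (GRCm38.p6, the assembly behind mm10) of genes whose domains are described further on, printed 5′ to 3′ on the gene's strand with each GC box (GGGCGG or its complement, the motif bound by SP and KLF factors) in capitals.
Zbtb7a, chr10:81136071-81136270, plus strand: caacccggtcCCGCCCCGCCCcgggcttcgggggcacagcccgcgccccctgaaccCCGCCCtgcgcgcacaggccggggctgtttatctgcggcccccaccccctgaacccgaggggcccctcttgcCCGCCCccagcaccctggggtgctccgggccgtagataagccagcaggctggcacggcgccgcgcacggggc
Six5, chr7:19094344-19094543, plus strand: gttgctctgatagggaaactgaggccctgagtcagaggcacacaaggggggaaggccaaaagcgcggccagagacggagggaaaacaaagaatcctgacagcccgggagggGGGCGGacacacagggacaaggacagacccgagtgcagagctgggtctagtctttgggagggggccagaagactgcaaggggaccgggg
Irs2, chr8:11008930-11009129, minus strand: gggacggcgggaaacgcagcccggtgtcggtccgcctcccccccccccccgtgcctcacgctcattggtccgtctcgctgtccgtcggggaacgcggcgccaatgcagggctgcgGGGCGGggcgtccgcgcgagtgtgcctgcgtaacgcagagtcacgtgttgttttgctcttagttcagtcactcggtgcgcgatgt
Wnt9a, chr11:59306730-59306929, plus strand: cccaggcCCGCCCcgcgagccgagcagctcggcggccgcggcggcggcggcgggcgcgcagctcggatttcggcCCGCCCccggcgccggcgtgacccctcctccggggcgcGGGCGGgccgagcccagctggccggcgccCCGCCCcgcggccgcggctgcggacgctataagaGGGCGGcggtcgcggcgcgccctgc
Sfn, chr4:133602169-133602368, minus strand: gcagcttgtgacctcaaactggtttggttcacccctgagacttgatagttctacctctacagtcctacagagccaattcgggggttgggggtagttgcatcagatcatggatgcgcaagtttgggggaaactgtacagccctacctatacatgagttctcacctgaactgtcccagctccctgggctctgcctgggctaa
The upstream bases held 4 GC boxes at Zbtb7a, 5 at Wnt9a, 1 at Six5, 1 at Irs2 and 0 at Sfn. CpG pairs numbered 41 at Wnt9a, 27 at Irs2, 21 at Zbtb7a, 7 at Six5 and 2 at Sfn, so the promoter of the epithelial gene Sfn was the poorest in CpG of the 5.

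The other 3 sequences come from domains made of repeated DNA. The satellite unit is 1 copy of the 234-bp tandem repeat of the chromosome 9 domain, and its capitals mark the 5 bases that differ in the next copy. The chrX unit is 57 bp long, the best-matching offset found for its domain, and was identical in the next copy. It is itself made of shorter, nearly identical repeats. Both units were picked as the windows most like their next copy. Over the whole domain, identity at the same offset was 70.6% for the satellite and 87.3% for the chrX repeat. The mitochondrial match is a stretch of 150 bases of chromosome 1 with no difference from the mitochondrial genome.
satellite unit, chr9:3027538-3027771, plus strand: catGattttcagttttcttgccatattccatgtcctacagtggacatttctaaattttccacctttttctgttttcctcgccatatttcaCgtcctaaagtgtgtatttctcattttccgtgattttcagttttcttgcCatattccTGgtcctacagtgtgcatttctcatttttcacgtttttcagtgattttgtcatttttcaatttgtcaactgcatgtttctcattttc
chrX unit, chrX:135042423-135042479, plus strand: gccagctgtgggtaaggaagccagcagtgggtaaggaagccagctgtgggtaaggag
mitochondrial match, chr1:24612536-24612685, plus strand: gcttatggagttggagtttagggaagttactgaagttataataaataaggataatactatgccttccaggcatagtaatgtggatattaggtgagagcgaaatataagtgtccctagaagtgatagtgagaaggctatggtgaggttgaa

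Epithelium libraries 1, 2 and 3 held 3495, 5993 and 4523 peaks wider than 2000 bp, and mesenchyme libraries 1, 2 and 3 held 4983, 5822 and 6432. The ranges of the tissues overlapped, and the means of 4670 ± 1260 and 5746 ± 728 (SD, n = 3) did not differ beyond the spread of the libraries (exact permutation test, two-sided, p = 0.3, where 0.1 is the smallest that 3 against 3 can give). Between 28% and 49.2% of a library's wide peaks lay in the domains, 39.2% ± 9.86 in epithelium and 31.7% ± 4.1 in mesenchyme (SD, n = 3; exact permutation p = 0.3). The domains took up 4.01% to 4.61% of all base pairs under peaks, between 5769103 and 7099706 bp per library at a mean peak width of 3356 to 3939 bp, and this share was 4.37% ± 0.316 in epithelium and 4.35% ± 0.233 in mesenchyme (SD, n = 3; exact permutation p = 0.9). Epithelium library 1 had the shortest list, with 270003 peaks, and it was the library without a wide peak at 350 of the 880 regions that were wide in the 5 others. The start sites of 18 to 19 of 20 epithelium marker genes lay in a peak in epithelium, and 16 to 17 did so in mesenchyme. For the 20 mesenchyme markers these counts were 14 to 18 and 19 to 20, so marker promoters of either tissue were mostly open in both. The summed peak width at the starts was 39248 to 49957 bp in epithelium and 21369 to 31269 bp in mesenchyme for the epithelium markers, and 21773 to 28109 bp and 28451 to 33275 bp for the mesenchyme markers. Of 20 endothelial, immune, muscle and nerve markers 10 to 12 were open in each library, with summed widths of 15943 to 17568 bp in epithelium and 14548 to 17458 bp in mesenchyme. How far such other cells entered a result was not tested. The reads behind each peak are unknown, and the list lengths of 270003 to 349322 stand in for depth.

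Just above the threshold lay the domains of Smarca5 and Ebf4, whose narrowest library had a peak of 2001 bp, those of Hira with Mrpl40 and of Ldlrad4 at 2002 bp, and that of Lrrc4 at 2003 bp. Just below it lay the regions of Nfkbia, Phf10, Pcdh1 and Gpr27, each with a widest peak of 2000 bp in 1 library, and that of Map3k12 with Tarbp2 at 1999 bp. At Nfkbia the other 5 libraries had peaks of 2090 to 3020 bp, so the regions on the 2 sides of the threshold were alike in width.

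The domains were sorted into 4 classes. A domain was called repeat-like when at least 50% of its 50-base words occurred more than once in the assembly, or when at least 20% of its bases aligned to the mitochondrial genome at 80% identity or more. There were 130 such domains, 8.58% of the 1515, next to 7.76% of the other regions found in all 6 libraries, so the totals were close. They mix regions with and without a protein-coding start, which 72.7% of the domains and 18.7% of the other regions held. Among regions with such a start, 32 of 1102 domains and 214 of 11962 other regions (1.79%) were repeat-like. Of the remaining 1385 domains, 1070 held the start site of a protein-coding gene, 70 only that of another annotated gene, and 245 no annotated start. Each gene had a single start here, the upstream end of its annotated record, and starts of its other transcripts were not searched. The classes changed with width. Among domains whose narrowest library had a peak of 2000 to 2500 bp, 5.02% of 856 were repeat-like and 73.1% held a protein-coding start. Between 5000 and 10000 bp, 45.5% of 33 were repeat-like, and over 10000 bp 86.7% of 15 were (13 domains; exact binomial 95% interval 59.5% to 98.3%, which covers counting error only).

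**Figure D1:**
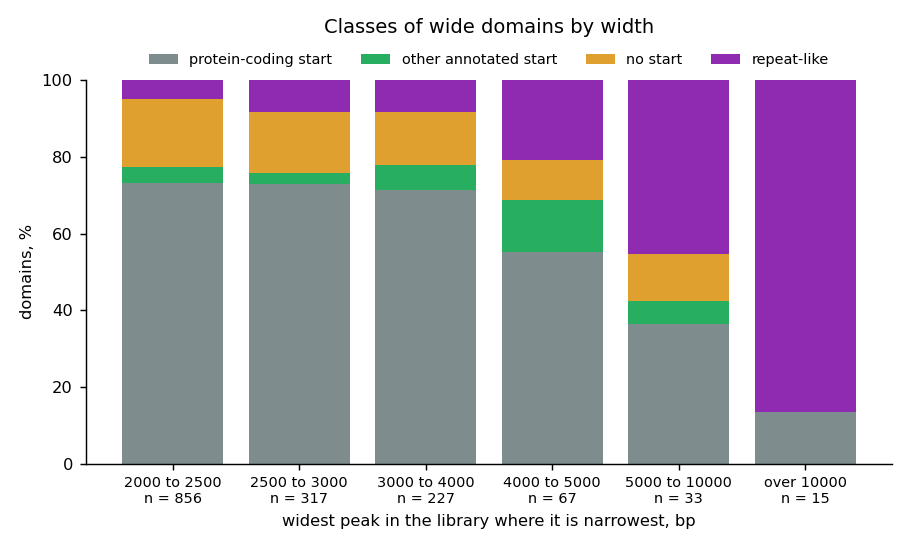
Share of domains (percent) in each of the 4 classes, by the width in bp of the widest peak in the library where it is narrowest; n is the number of domains per bar. Protein-coding start sites fill 73.1% of the narrowest bin and 13.3% of the widest, where 13 of 15 domains are repeat-like.

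Over the 1385 domains that were not repeat-like the widest peak had a median of 2720, 3126 and 2897 bp in epithelium libraries 1 to 3 and 2960, 3039 and 3204 bp in mesenchyme libraries 1 to 3. Spearman correlations of width across these domains were 0.578 to 0.695 between libraries of 1 tissue and 0.502 to 0.656 between tissues, a description only, since all lists share the same genome and the same floor at 2000 bp. Rank order was thus partly shared by the libraries, while the widest library exceeded the narrowest by a median of 50.0%. In 62 of the 1385 no base pair was shared by the wide peaks of all 6 libraries.

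Start sites of protein-coding genes lay in 1102 of the 1515 domains, 72.7% (exact binomial 95% interval 70.4% to 75.0%), against 18.7% of the 64054 other regions found in all 6 libraries. Without the repeat-like domains the share was 77.3%. Most of the 1070 start-site domains served 1 gene: 895 held 1 start, 157 held 2 and 18 held 3 or more, with at most 5. Starts on both strands, the arrangement of divergent gene pairs, occurred in 145 of them (13.6%), against 8.98% of the 11962 other start-site regions. Of those 11962, 214 were repeat-like. The start-site domains spanned a median of 3968.5 bp, against 1816 bp for the 11748 other start-site regions that were not repeat-like. A longer region has more room for a start, and the part of length in these shares was not tested.

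Measured from the upstream end of the gene record, the domains reached mainly into the gene. Peaks over transcript starts further inside count as downstream here, and their part was not tested. At 859 of the 895 single starts the start lay inside a peak in all 6 libraries, and these peaks extended a median of 957 bp upstream and 1901 bp downstream of it. In 700 of the 859 (81.5%) the downstream arm was the longer. At the 8896 comparable starts outside the domains the median arms were 405 and 760 bp, and the downstream arm was the longer in 82.9%. Longer arms in the domains follow from the rule on width. The lean into the transcribed part was about the same in both sets. The 90th percentile of the downstream arm was 3216 bp in the domains and 1361 bp outside them.

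**Figure D2:**
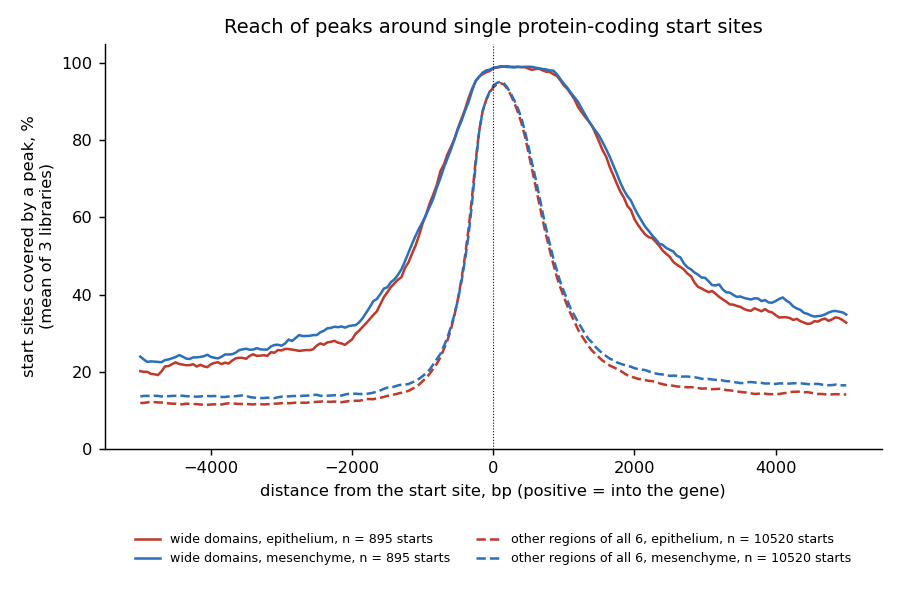
Percent of single protein-coding start sites covered by a peak at each distance in bp from the start (positive values lie in the gene), as the mean of 3 libraries per tissue, for 895 starts in the domains and 10520 in other regions of all 6 libraries. Domain curves (solid) are wider on both sides than the others (dashed), which follows from the rule on width. They reach further into the gene than upstream, and nearly coincide for epithelium and mesenchyme.

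Start-site domains carried longer CpG-rich stretches than other start-site regions. A CpG-rich stretch is here the longest run of 200-bp windows with a GC content of at least 50% and a ratio of observed to expected CpG of at least 0.6. Its median was 1635 bp in the 1070 start-site domains that were not repeat-like and 850 bp in the 11748 other start-site regions, and 82.9% against 36.9% had a stretch of at least 1000 bp. GC content differed less, with medians of 58.9% and 56%. Across the 11748 other regions the width of the peak and the CpG-rich stretch rose together (Spearman rho = 0.702), while across the 1070 domains, which span a narrower range of widths by selection, rho was 0.102. Both values describe regions that share libraries and sequence composition. A longer interval also has more room for a long stretch, and the part this plays was not tested.

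Short motifs were counted in the 300 bases around the RefSeq start (250 before and 50 after), on both strands. A GC box, GGGCGG, occurred in 905 of 1212 promoters in the domains (74.7%), in 60.3% of 13226 promoters in other regions of all 6 libraries and in 35.9% of all 27025 promoters. Median GC content of these windows was 66.3%, 60.3% and 52.7%. Of the 15 motifs searched, the CTCF core AGGGGGCGC was also more frequent in domain promoters, at 2.97% against 2.15%, and 1.24% of all promoters. Several others were less frequent in domain promoters than in promoters of the other regions: the ETS motif CCGGAAG stood in 9.16% against 15.7%, the TATA box TATAAA in 5.78% against 7.0%, the homeobox core TAATTA in 0.908% against 2.26%, and the E-box CAGGTG, bound by TWIST and ZEB factors, in 14.9% against 20.5%. Over all promoters these 4 shares were 9.12%, 14.2%, 5.31% and 20%. The CCAAT box, CCAAT, was as frequent in domain promoters (37.0%) as in the others (36.9%) and in all (37.9%). GC-rich sequence holds GC boxes more often and AT-rich words less often, and the part of base composition in these shares was not tested.

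The widest domains over protein-coding starts outside the repeat-like class included several regulators and signalling genes. Sfi1, a centrosomal gene (chr11:3178845-3200218), came first with 16526 to 18150 bp. It lies beside repeat-like domains on chromosome 11, and 14% of the 50-base words of its own domain were repeated. Glp1r, the receptor of the gut hormone GLP-1 (chr17:30880967-30915889), followed with 12077 to 17023 bp. The domain at chr10:80125760-80168916 held the starts of Cirbp, Midn, Atp5d and Cbarp, and its widest peak measured 10087, 11032 and 13007 bp in epithelium libraries 1 to 3 and 9839, 10723 and 10635 bp in mesenchyme libraries 1 to 3. Cirbp encodes a cold-inducible RNA-binding protein. Zbtb7a, a zinc finger repressor of glycolytic and haematopoietic genes (chr10:81134032-81149210), had peaks of 10514, 13278 and 15019 bp in epithelium and 14186, 7586 and 12759 bp in mesenchyme, and mesenchyme library 2 stood apart as the narrowest. The homeobox gene Six5 (chr7:19090563-19098390) had 5999, 7732 and 7815 bp in epithelium and 6505, 7641 and 7411 bp in mesenchyme. These ranges overlapped, as they did at Irs2, the insulin receptor substrate (chr8:11003179-11010291), with 6867, 5998 and 5837 bp in epithelium and 5857, 5828 and 6318 bp in mesenchyme. Pdgfa, a growth factor that signals from epithelium to mesenchyme in many organs (chr5:138992599-138999338), had 5574, 5971 and 6476 bp in epithelium and 6694, 5602 and 6070 bp in mesenchyme. Gadd45b, a stress and growth-arrest gene (chr10:80927278-80938292), ranged from 5560 to 6870 bp over the 6 libraries. Brd2, which encodes a reader of acetylated histones, ranged from 5172 to 6655 bp, and Zmiz1, a transcriptional coactivator, from 5163 to 6276 bp. The other domains among the 15 widest held Zfp651, Trim8, Alad, the pair Gas2l1 and Rasl10a, and the group Jmjd8, Rhbdl1, Stub1 and Wdr24, with a width in the narrowest library of 5730, 5075, 4957, 5099 and 5341 bp.

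**Figure D3:**
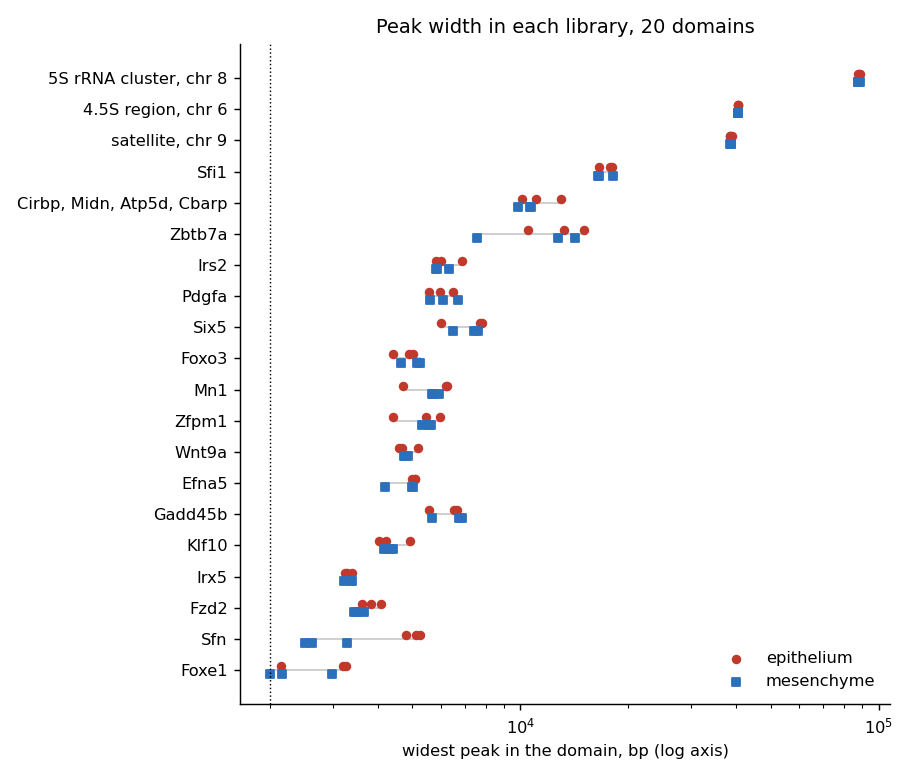
Width in bp (log axis) of the widest peak in each of the 6 libraries (red circles epithelium, blue squares mesenchyme) for 20 named domains; the dotted line marks 2000 bp. The repeat domains picked for the top reach 38556 bp or more in every library with closely matching widths. The gene domains shown vary between libraries, and the tissues are separated at Sfn. Over whole classes the widest library exceeded the narrowest by a median of 79.0% in repeat-like domains and 45.2% in protein-coding start domains.

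Regulators and signalling genes made up a larger share of the start-site domains than of other start-site regions. Of 14589 protein-coding genes with a start in a region found in all 6 libraries, 1320 (9.05%) had it in a domain. Of 564 such genes on 7 lists of developmental regulators and signals, 140 did (24.8%). Counted by region, 140 of the 1102 start-site domains (12.7%, exact binomial 95% interval 10.8% to 14.8%) held a listed gene, against 420 of the 11962 other start-site regions (3.51%). The list of zinc finger and other regulators had 36 of 101 genes in a domain (35.6%), and Sox, Fox, Pax, Gata and Tbx genes 25 of 81 (30.9%). The bHLH and Id genes had 14 of 51 (27.5%). Homeobox genes outside the Hox clusters had 15 of 114 (13.2%), close to the 9.05% of all genes. Of 28 Hox genes with a start in a region of all 6 libraries, 0 had it in a domain.

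Among single regulators, Foxo3, a forkhead factor downstream of insulin signalling (chr10:42273551-42279032), had peaks of 4903, 5034 and 4408 bp in epithelium and 5154, 5246 and 4638 bp in mesenchyme. Its CpG-rich stretch of 4080 bp was nearly as long as its peaks. Sox12, a SoxC factor of progenitor cells, measured 4426, 4595 and 4264 bp in epithelium and 4374, 3299 and 4456 bp in mesenchyme. The zinc finger gene Zfp703 was among the most even, with 4472, 4535 and 4472 bp in epithelium and 4239, 4500 and 4579 bp in mesenchyme. Zfpm1, a cofactor of Gata factors, ranged from 4418 to 5968 bp and Irx5, an Iroquois homeobox gene, from 3212 to 3395 bp. The proto-oncogene Mycn (chr12:12937077-12943339) had peaks of 5313, 5904 and 5027 bp in epithelium and 3469, 4209 and 3592 bp in mesenchyme. Its single widest peaks did not overlap between tissues, yet the base pairs covered by all peaks of the region differed by only 0.18 ± 0.11 on the log2 scale (SE; limma adjusted p = 0.581). Hes1, a Notch target, ranged from 3264 to 5344 bp with overlapping tissues.

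Signalling genes had 25 of 118 Wnt, Fgf, Bmp, Tgf-beta and hedgehog genes in a domain (21.2%) and 25 of 71 Notch, Eph and semaphorin genes (35.2%). Wnt9a, a Wnt ligand (chr11:59303863-59309961), measured 5185, 4690 and 4599 bp in epithelium and 4742, 4862 and 4769 bp in mesenchyme. Its tissues overlapped, as did those of the feedback inhibitor Axin2, with a range of 3939 to 5155 bp. The Wnt receptors Fzd7 and Fzd2 ranged from 3435 to 4475 bp and from 3431 to 4091 bp. Efna5, an ephrin ligand, measured 5086, 5075 and 4973 bp in epithelium and 4989, 4184 and 5030 bp in mesenchyme. Jag2, a Notch ligand, varied from 3705 to 7070 bp.

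Orofacial cleft and palate genes had 17 of 46 starts in a domain (37.0%). Among them were the transcription regulators Mn1, Maf, Sox9, Sox11, Gli2, Gli3, Foxe1, Foxf2, Chd7 and Kmt2d, the signals and receptors Jag2, Nog, Tgfb3 and Fgfr2, and the epithelial genes Sfn and Nectin1. Mn1, a transcriptional coregulator required for palate growth (chr5:111416150-111422566), was the widest, with 4692, 6261 and 6186 bp in epithelium and 5656, 5946 and 5690 bp in mesenchyme. Fgfr2, the receptor of fibroblast growth factors, measured 3820, 3711 and 3321 bp in epithelium and 3793, 3764 and 3861 bp in mesenchyme, along a CpG-rich stretch of 3820 bp. The Bmp antagonist Nog ranged from 2638 to 3428 bp and the chromatin remodeller Chd7 from 2339 to 2594 bp. Sox9, a regulator of cartilage and neural crest, measured 2205 bp in epithelium library 1 and 3229 to 4908 bp in the 5 others. Nectin1, an adhesion molecule, measured 2036 bp in epithelium library 3 and 3051 to 5781 bp in the others, so both owed their rank to 1 narrow library. Many central palate genes, such as Tfap2a, Pax9, Msx1, Shh, Cdh1 and Grhl3, had the gene start in a merged region found in all 6 libraries but in no domain. Starts of their other transcripts were not searched.

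Of the 16 lists, the largest share belonged to the immediate early list, whose genes are transcribed within minutes of a stimulus: 24 of 40 (60%) had their start in a domain. Egr1 measured 4061, 4444 and 4651 bp in epithelium and 4072, 4365 and 4262 bp in mesenchyme. Klf10 ranged from 4031 to 4933 bp, the mRNA-decay factor Zfp36l2 from 3942 to 4445 bp, and Junb, an AP-1 subunit, from 3691 to 6378 bp. Some of these genes also stand on the regulator lists. Translation and RNA processing genes had 18 of 201 starts in a domain (8.96%), about the 9.05% of all genes. Proteasome, mitochondrial and chaperone genes had 18 of 285 (6.32%) and ribosomal protein genes 2 of 81 (2.47%), namely Rpl7 and Rpl10a. Histone genes had 9 of 70 (12.9%), but only 2 outside repeat-like domains. Among tissue markers, 2 of 18 epithelium genes (Sfn and the splicing regulator Esrp2), 0 of 14 mesenchyme genes and 2 of 9 genes of other cell types (Sox10 and Elavl3) had a domain.

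**Figure D4:**
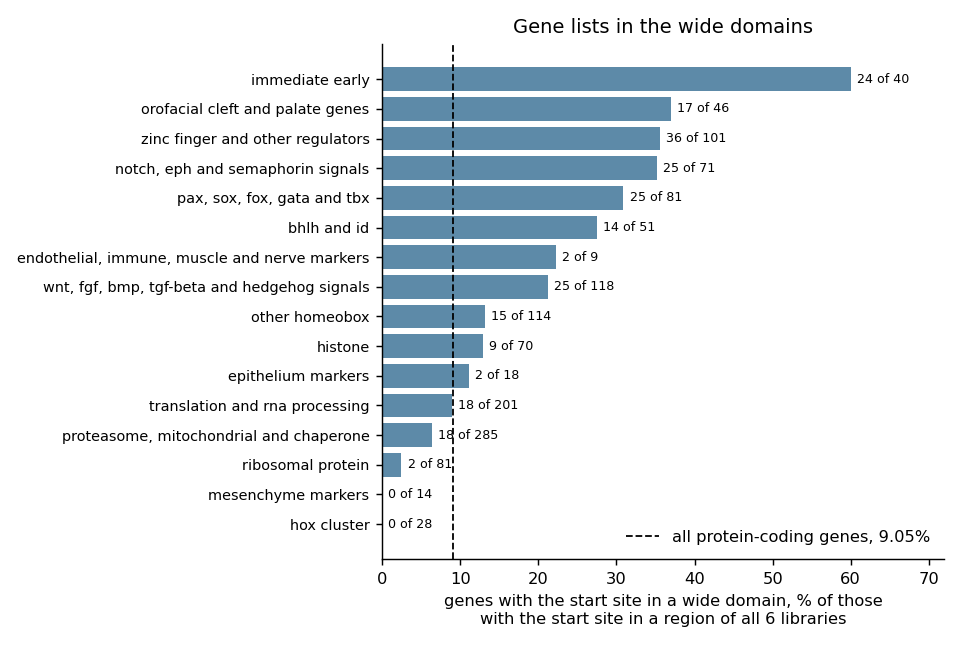
Percent of each gene list with the start site in a wide domain, out of the list's genes whose start lies in a region of all 6 libraries; counts stand beside the bars, and the dashed line is the 9.05% of all protein-coding genes. Immediate early genes (60%) and cleft genes (37.0%) lie furthest to the right, ribosomal protein (2.47%) and Hox genes (0 of 28) to the left of the line.

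The 245 domains over no annotated gene start were mostly inside genes: the midpoint of 145 (59.2%) was intronic, of 74 (30.2%) exonic and of 26 (10.6%) between genes. Starts of transcripts that begin further inside a gene were not searched, so some of these domains may cover one. The nearest protein-coding start was a median of 14184 bp away. It was within 5000 bp for 65 domains. Their sequence was almost as GC-rich as that of start-site domains (median 57.8%), with a shorter CpG-rich stretch (970 bp). In the 47335 other regions of all 6 libraries that held no protein-coding start and were not repeat-like, the median stretch was 0 bp. Those regions spanned a median of 1426 bp and could hold starts of other annotated genes, while the 245 domains spanned 4824 bp. The part of length was not tested. The widest of these domains lay at chr15:76184372-76210315, with peaks of 7943, 10569 and 8010 bp in epithelium and 14721, 10088 and 6342 bp in mesenchyme. Of the 8 widest, 4 lay on chromosome 11, and the one of them at chr11:69403061-69412342, with a CpG-rich stretch of 3050 bp, measured 8452, 8674 and 4346 bp in epithelium and 4844, 9140 and 8985 bp in mesenchyme. Here libraries of the same tissue differed more than the tissue means of 7157 and 7656 bp. Among the 8 widest, repeats masked in the assembly filled 67.6% of the domain on chromosome 18 and 53.1% of that on chromosome 4. They filled 44.4% of that on chromosome Y and of chr11:116738853-116748251, where 42.1% of 50-base words were repeated. In the rest of the 8 the masked share was 7.7% to 15.2%. The part of repeats in these widths was not tested.

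The repeat-like domains held the extreme widths. The widest, chr8:123535973-123624922, covers an array of 51 annotated 5S ribosomal RNA genes, all on the minus strand, with a median of 1697 bp between neighbouring starts. It was a single peak of 87609, 88928 and 88470 bp in epithelium and 87671, 87467 and 88900 bp in mesenchyme. In it 94.6% of the 50-base words were repeated, with a median of 47 copies. The domain chr6:47646582-47687137 contains the RefSeq gene Rn4.5s, for the small 4.5S RNA, and measured 40431, 40473 and 40511 bp in epithelium and 40514, 40522 and 40538 bp in mesenchyme, a spread of 0.26%. The satellite domain chr9:2999843-3038807 measured 38556, 38951 and 38565 bp in epithelium and 38635, 38567 and 38793 bp in mesenchyme. It matched itself best at an offset of 234 bp, the length of the printed unit. The domain chr1:171063320-171077283, over the start of the Fc receptor gene Fcgr3, holds 10 RefSeq tRNA genes and measured 13582 to 13855 bp. Between libraries these 4 domains differed in width by 0.26% to 2.01%.

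Other repeat-like domains were uneven, and over all 130 the widest library exceeded the narrowest by a median of 79.0%. In the 1070 start-site domains that were not repeat-like this median was 45.2%. At chr6:114494123-114638476, where a 50-base word had a median of 35 copies, the widest peak measured 29569, 79027 and 53644 bp in epithelium and 45917, 68574 and 58145 bp in mesenchyme. The chromosome X domain that holds the 57-bp unit, chrX:135040413-135056640, ranged from 6456 to 14879 bp and lay within the 130 repeat-like domains by 85.4% repeated words. Repeat-like domains were gathered in few places. Chromosome 8 held 47 of the 130, of which 40 lay between 19694068 and 20829655 bp, and chromosome 5 held 22, of which 20 lay between 14910305 and 15716354 bp around the Speer genes. In all, 93 of the 130 stood in 10 groups of at least 3 less than 1.5 Mb apart. Protein-coding starts lay in 32 of them (24.6%). Some held recent gene duplicates, among them the interferon gene Ifnz. Examples on chromosome 17 were Hspa1a and Hspa1b, 2917 to 3225 bp and 3040 to 3472 bp wide. The histone genes Hist2h2aa1 and Hist2h3c1 shared a domain, and Hist2h2aa2 and Hist2h3c2 lay in the repeat-like domain beside it. For these the assignment of reads between copies is uncertain, and no source used here says whether reads with several positions were removed.

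The mitochondrial genome was matched by 2 domains. At chr1:24611360-24616345, where 93.3% of the bases aligned to it, the peaks measured 4967, 4966 and 4982 bp in epithelium and 4969, 4969 and 4968 bp in mesenchyme, and the longest alignment of 4654 bp had 99.9% identity. At chr2:22587132-22590694, with 91.1% aligned, they measured 3553, 3556 and 3559 bp in epithelium and 3554, 3555 and 3552 bp in mesenchyme. The 6 libraries differed by 0.32% at the first and 0.2% at the second. Only 2 domains outside the repeat-like class were as even, with a spread under 1%. One, chr17:39842833-39849000, measured 6161 to 6167 bp and contains Rn18s-rs5, annotated by RefSeq as a pseudogene, and the other, chr14:19415559-19419847 with Gm21738, measured 4278 to 4289 bp. In these 10.1% and 17.5% of 50-base words were repeated in the assembly, under the 50% limit, so they fell outside the class. The share of reads with another origin cannot be told from peak positions and was not tested.

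Domains were spread unevenly over the chromosomes. Leaving out repeat-like domains, chromosome 11 held 1.11 per Mb and chromosome 17 1.08 per Mb, and the other autosomes 0.275 to 0.804. These densities were not set against the number of genes per chromosome, and its part was not tested. Chromosome X held 0.0702 per Mb, with 20 domains of which 8 were repeat-like.

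The last comparison asked whether any domain was wider in one tissue. For each of the 65554 regions found in all 6 libraries the base pairs covered by peaks were taken per library on the log2 scale, centred on the library's median and compared with limma. The 1515 domains fall in 1500 of these regions. Such a region joins peaks of any width and can be longer than the domain it holds, so the differences below are those of the regions. After Benjamini-Hochberg adjustment 0 of 1500 were called in either direction, as were 0 of all 65554 (0.0%), and the smallest adjusted p was 0.12. The absence of calls does not show that widths were equal. At an unadjusted p under 0.05, 72 of the 1500 (4.8%) were wider in epithelium and 15 (1.0%) in mesenchyme, against 5.86% and 5.6% of all regions, so neither count exceeded its background. Values of the tissues did not overlap for 196 domains wider in epithelium (13.1%) and 46 wider in mesenchyme (3.07%), against 9.93% and 7.35% of all regions. The direction depends on the centring. Without it, 23 of the 1500 (1.53%) were wider in epithelium and 72 (4.8%) in mesenchyme at an unadjusted p under 0.05, next to 2493 and 5058 of all 65554 regions, and the median log2 difference of the domains went from 0.078 to -0.029, while that of all regions went from 0.027 to -0.080, so the domains moved along with all regions. Differences in covered base pairs were small. Of the 1385 domains that were not repeat-like, 1381 (99.7%) lay within 0.5 of 0 on the log2 scale, against 73.7% of all regions. The extremes were -0.49 and 0.69. Median standard errors were 0.12 for the domains and 0.32 for all regions, and the part of region length was not tested. On the width of the widest peak, differences were larger at Agrn (1.09), Sfn (0.97) and Cacna1g (-0.82), and smaller at Crim1 (0.45) and Adamts2 (-0.32). The rule required a wide peak in every library, which limits the differences that could enter.

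The domains with the smallest p-values were picked after their values were seen, and none passed the adjustment. Covered base pairs are those of the whole merged region around a domain, not of the printed domain interval alone. The domain of Agrn, for the basement membrane proteoglycan agrin (chr4:156191408-156198866), is 7459 bp long, and no base pair was shared by its wide peaks in all 6 libraries. The region around it had 7157, 8093 and 8022 bp covered in epithelium and 4783, 5288 and 5415 bp in mesenchyme. The tissues did not overlap, and the log2 difference was 0.69 ± 0.09 (SE, limma adjusted p = 0.12, 0.0804 to 0.348 over the alternatives). At Sfn, which encodes the epithelial 14-3-3 sigma protein (chr4:133598308-133604544), 5947, 5691 and 5863 bp were covered in epithelium and 4021, 4132 and 4572 bp in mesenchyme, a difference of 0.57 ± 0.11 (SE, limma adjusted p = 0.16). Its widest single peak showed the same separation, with 5101, 4793 and 5239 bp against 3279, 2631 and 2515 bp. At Crim1, a transmembrane protein that binds Bmp ligands, 3824, 4207 and 4016 bp stood against 2663, 2737 and 3349 bp (0.57 ± 0.12, limma adjusted p = 0.163).

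On the mesenchyme side stood Adamts2, which cleaves the amino end of fibrillar procollagens (domain chr11:50600786-50604767). The region around its domain had 2151, 2829 and 3236 bp covered in epithelium and 3877, 4058 and 4348 bp in mesenchyme. The log2 difference was -0.49 ± 0.14 (SE, limma adjusted p = 0.259). At Igfbp4, a binding protein of insulin-like growth factors, 3586, 4446 and 4068 bp stood against 5105, 5676 and 5954 bp (-0.36 ± 0.09, adjusted p = 0.207). Both pairs of ranges were separate without passing the test. Foxe1, the forkhead gene of the cleft list, had single peaks of 3196, 3259 and 2148 bp in epithelium and 2005, 2156 and 2980 bp in mesenchyme, which overlapped, and a difference of 0.32 ± 0.13 in covered base pairs (SE, adjusted p = 0.394). For the 140 genes of the 7 regulator and signal lists in a domain the median difference was 0.094, and 0 were called, next to a median of 0.074 for the 1267 genes in domains that were not repeat-like.

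**Figure D5:**
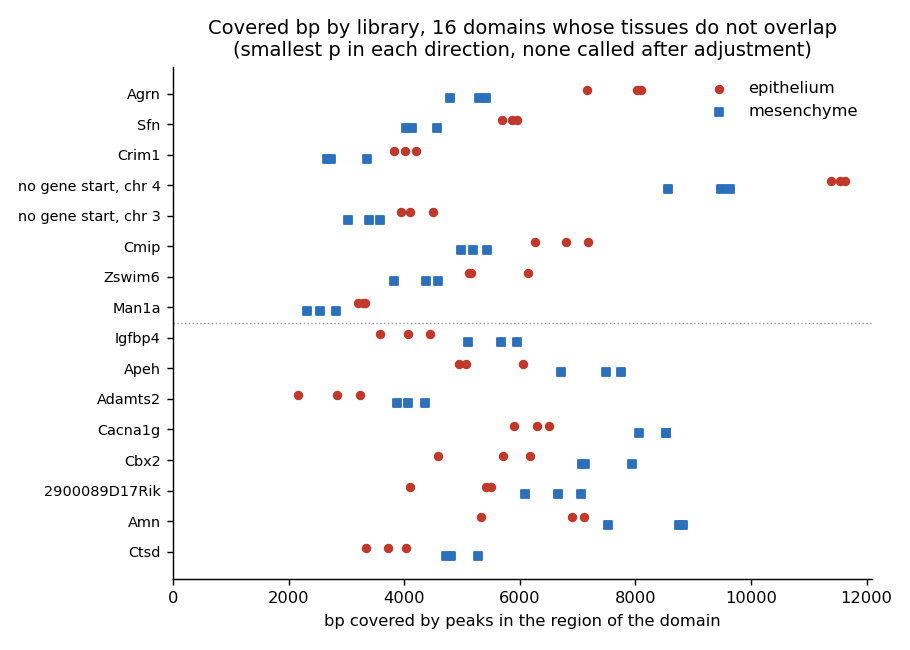
Base pairs covered by peaks in the region of each domain, per library (red circles epithelium, blue squares mesenchyme), for the 8 domains per direction with the smallest p among those whose tissues do not overlap; the dotted line parts the directions. Agrn, Sfn and Crim1 lie further right in epithelium, Adamts2 and Igfbp4 in mesenchyme, and none of the 16 was called after adjustment.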

How the data were processed

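ATAC-seq peak positions of 3 palatal epithelium and 3 palatal mesenchyme libraries, labelled biological replicates, were used as the authors deposited them: chromosome, start and end, 1 list per library, with no count, height or score. Upstream, the authors ran Trimmomatic 0.38, mapped to mm10 (Bowtie2), dropped duplicates (SAMtools), kept short fragments and called peaks with MACS2 2.1.1 without a model or local background. The peak threshold and any filter on reads with several positions are not given in the sources used here.

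Peak width was end minus start. Regions of all 6 libraries were compared on log2 covered bp with limma 3.58.1 (trend, library median subtracted, R 4.3.3), with Benjamini-Hochberg adjustment over all of them. Other steps used Python 3.11.15, BLAST 2.17.0, GRCm38.p6 and GENCODE M21. Start sites, 50-base words and RefSeq promoters were read from that assembly. Scripts were tested on simulated data.

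Genes were named by rule: the widest domains over a start, over none and repeat-like, up to 4 per list, the cleft genes (some items are not reported here), and those nearest 2000 bp. Additions are the widest outside the repeat-like class, further list members, and the tissue genes. Domains and lists were chosen with earlier results of these data known.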

Additional observations from a re-analysis of the deposited data

How the results depend on the processing

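The number of domains followed the width threshold: 1515 above 2000 bp became 3886 above 1500 bp, 657 above 2500 bp and 341 above 3000 bp, and 1582 to 1866 when each library in turn was left out, with 1866 without epithelium library 1. The start-site share of 72.7% was 67.4% above 3000 bp, 77.3% without the repeat-like domains, 78.9% with the starts of all annotated genes, 62.6% in the base pairs shared by all 6 libraries, and 69.8% to 72.1% with a library left out. The share of start-site domains with a listed regulator or signal, 12.7%, was 8.62% above 1500 bp, 15.7% above 3000 bp and 11.6% to 12.7% with a library left out. The 130 repeat-like domains became 41 when 90% of the 50-base words had to be repeated, 237 above 1500 bp, 85 above 2500 bp and 60 above 3000 bp. The difference between epithelium and mesenchyme in the share of covered base pairs, 0.02 percentage points, was -0.04 without the repeat-like domains and -0.113 to 0.198 with a library left out, a choice added after seeing the data. So were those for wide peaks per library (-1740 to -488) and for the share of wide peaks inside the domains (2.45 to 12.3 percentage points). The causes were not tested.

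Without scaling, the median log2 difference of the domains was -0.029 and that of all regions -0.08. Between libraries with the same number, deviations from the tissue means correlated at 0.0168, -0.00313 and 0.00557. Such values cannot tell whether these libraries came from the same embryos. With the replicate number as a block, limma called 0 domains, as without it, and 65 (4.33%) were wider in epithelium and 13 (0.867%) in mesenchyme at an unadjusted p under 0.05, next to 3597 and 3720 of all 65554 regions. Read depth is unknown, so the limit it sets on peak width could not be measured.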

Other observations

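At 880 merged regions 5 of the 6 libraries had a wide peak. The library without one was epithelium 1 at 350 of them, epithelium 3 at 158, mesenchyme 1 at 140, mesenchyme 2 at 97, mesenchyme 3 at 70 and epithelium 2 at 65. The widest peak of the missing library there had a median of 1669 to 1856 bp, so these regions were near the threshold of 2000 bp in that library too.

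The heat shock gene Hspa1b, in a repeat-like domain on chromosome 17, had a log2 difference in covered base pairs of 0.4 ± 0.12 (SE, limma adjusted p = 0.285) towards epithelium, and the domain of its near copy Hspa1a one of 0.1 ± 0.13 (adjusted p = 0.829). The difference between the copies was not tested.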
